A study of Mus musculus with 10 samples.

Results

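Drd4, Tsx, Lratd1, Clstn1, Tpd52l1 and Hopx are 6 genes whose signal was among the most strongly reduced in testes of SCARKO mice, in which androgen receptor function is removed selectively from Sertoli cells. They were chosen with the results of this comparison known, as the largest falls not placed in a gene family. They are 6 of the 7973 genes that could be measured, and 9 of the 22626 probe sets on the array report them. Each gene is described by its brightest probe set, and the other probe set of Drd4, Hopx and Clstn1 is given beside it. The size of each fall below is therefore a description without a test.

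The series measured RNA of whole testes from 10 day old mice. Control mice carried the AMHCre transgene according to the labels, and the labels give no further allele of either group. The Amh promoter directs Cre recombinase to Sertoli cells, so the SCARKO mice model loss of the androgen response in that cell type, with the other testicular cells still present in the tissue. Each of the 10 arrays held RNA pooled from 1 testis of each of 3 littermates, with 5 control and 5 SCARKO pools made as littermate pairs numbered 1 to 5. Signals are on a linear scale, and each array's trimmed mean is 100. Titles and descriptions named opposite genotypes for the 8 arrays of 4 pairs and the same genotype for pair 5. Groups here follow the titles, and every direction rests on them. Of 21 Sertoli cell markers listed, 19 were measured, among them Sox9, Wt1 and Inha, and 13 of 14 germ cell markers were measured. No erythroid marker reached a measurable signal.

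Sertoli cells line the seminiferous tubules, where they surround and nurse the germ cells. They carry the receptors for both testosterone and FSH, so androgens act on germ cells largely through them. The liganded androgen receptor enters the nucleus and binds DNA at short hexamers, often arranged as inverted repeats. The 6 genes encode proteins of unrelated kinds. Drd4 is a dopamine receptor that couples to inhibitory G proteins, Tsx is a testis-expressed gene that lies in the X-inactivation centre, and Hopx is a small homeodomain protein that does not bind DNA itself and acts through serum response factor and histone deacetylases. Tpd52l1 is a coiled-coil protein of the tumour protein D52 family, Clstn1 is calsyntenin, a transmembrane protein that docks vesicles to kinesin, and Lratd1 is a protein with a domain like that of lecithin retinol acyltransferase.

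The stretches before the start sites of Drd4 and Tsx, the deepest falls, and of Hopx are shown because the 6 genes fell together and share no gene family. RefSeq (GRCm38.p6) gave 7 start windows for the 6 genes, 2 of them for Hopx. The sequences are the 250 bases before the start, 5′ to 3′ on the gene's strand, for Drd4 at chr7:141291768-141292017 (plus strand), Tsx at chrX:103414217-103414466 (plus strand) and the upstream start of Hopx at chr5:77115124-77115373 (minus strand). Capitals mark GC boxes (GGGCGG or CCGCCC) in Drd4 and Tsx and the CArG box, the binding motif of serum response factor, in Hopx.
Drd4: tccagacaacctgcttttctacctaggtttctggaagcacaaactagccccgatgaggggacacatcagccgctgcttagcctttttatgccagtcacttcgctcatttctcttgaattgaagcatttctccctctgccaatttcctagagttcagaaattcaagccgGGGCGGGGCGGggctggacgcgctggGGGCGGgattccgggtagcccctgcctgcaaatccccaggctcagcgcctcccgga
Tsx: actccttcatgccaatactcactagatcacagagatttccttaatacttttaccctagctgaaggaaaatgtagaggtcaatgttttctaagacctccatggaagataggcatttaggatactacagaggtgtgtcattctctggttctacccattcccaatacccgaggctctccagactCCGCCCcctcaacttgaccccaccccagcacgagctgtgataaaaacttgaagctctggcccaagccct
Hopx: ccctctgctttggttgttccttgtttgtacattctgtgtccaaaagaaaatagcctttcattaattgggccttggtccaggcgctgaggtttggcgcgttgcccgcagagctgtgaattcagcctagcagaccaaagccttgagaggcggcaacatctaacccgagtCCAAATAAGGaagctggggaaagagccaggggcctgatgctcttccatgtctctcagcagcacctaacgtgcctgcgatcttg

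The hexamer of the androgen response element, AGAACA, or TGTTCT on the other strand, occurred in 0 of the 7 windows from 250 bases before to 50 bases after the start. It occurred in 18.97% of all 32851 RefSeq windows of the same length and in 12.1% of the 8465 windows of measured genes. The inverted repeat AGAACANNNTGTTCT was in none of the 7 windows and in 0.0091% of all windows. These letters were simply not in these windows, which hold a small part of the sequence that can regulate a gene. GC boxes were found in 5 of the 7 windows, those of Drd4, Tsx, Lratd1, Clstn1 and Tpd52l1, against 35.7% of all windows and 65.2% of windows of measured genes. The Drd4 window held 3 GC boxes, starting 82, 77 and 56 bases before the start, the first pair overlapping by a single base, and the Tsx window held 1, starting 69 bases before it. The CArG box of Hopx began 83 bases before the upstream start, and the window of its other start held none. This motif was found in 1.63% of all windows and 1.33% of those of measured genes. GC boxes and the CArG box were searched after the windows had been read. The windows also differed in base composition, from 48.0% G and C for Tsx to 79.7% for Clstn1, against a median of 52.7% over all windows.

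Drd4 and Tsx fell most, Tsx to a signal too dim for its remaining fraction to be measured closely, and the other 4 genes fell to between about 39% and 48% of it. In control pools 1 to 5 the signal of Drd4 (gene ID 13491) was 147.3, 104.8, 149.1, 147.8 and 205.7, and in SCARKO pools 1 to 5 it was 30.7, 29.1, 30.0, 27.8 and 24.9. The lowest control pool lay 3.41-fold above the highest SCARKO pool, the widest gap of the 6 genes. The means were 151 ± 35.9 and 28.5 ± 2.29 (SD, n = 5), and the log2 fold change was -2.38 (SE 0.13), which left 19.3% of the control signal. Drd4's other probe set was dimmer, with means of 79.2 ± 24.6 and 12.2 ± 3.06 (SD, n = 5), and the log2 fold change was -2.65 (SE 0.18). Its SCARKO values ran from 9.9 to 17.4, all below its lowest control value of 39.3 and all below 19.3, the mean signal under which a probe set was too dim to be kept. With 16 added to every signal before log2, which damps dim values, this probe set gave -1.71 and the brighter one -1.88.

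Tsx (gene ID 22127), on the X chromosome, had a signal of 34.4, 38.5, 81.2, 51.7 and 45.8 in control pools 1 to 5. In SCARKO pools 1 to 5 it was 11.3, 9.3, 10.8, 10.0 and 6.5. All 5 SCARKO values lay under the dim limit of 19.3. The means were 50.3 ± 18.5 and 9.58 ± 1.88 (SD, n = 5), and the log2 fold change was -2.35 (SE 0.18). With 16 added the change was -1.34, so the size of the Tsx fall is less certain than its standard error shows.

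Lratd1 (gene ID 105005) had signals of 197.9, 142.4, 220.1, 192.8 and 210.0 in control pools 1 to 5 and 61.7, 91.5, 72.0, 69.6 and 84.3 in SCARKO pools 1 to 5. The groups did not overlap, although pair 2 combined the lowest control with the highest SCARKO value. Means were 193 ± 30.0 and 75.8 ± 11.9 (SD, n = 5), and the log2 fold change was -1.34 (SE 0.12). One probe set reported the gene.

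Clstn1 (gene ID 65945) had signals of 214.7, 114.8, 255.6, 203.4 and 208.5 in control pools and 89.0, 77.6, 92.7, 85.6 and 95.8 in SCARKO pools, each in the order of pairs 1 to 5. Control pool 2 was far below the other 4 control pools and only 1.198-fold above the highest SCARKO pool. Means were 199 ± 51.6 and 88.1 ± 7.03 (SD, n = 5), and the log2 fold change was -1.13 (SE 0.11). The other probe set gave -0.99 (SE 0.12), with pool 2 again the lowest control at 74.3 and the highest SCARKO pool at 63.3.

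Tpd52l1 (gene ID 21987) had signals of 194.8, 152.3, 231.8, 221.8 and 266.3 in control pools 1 to 5 and 83.1, 94.9, 112.0, 107.5 and 97.7 in SCARKO pools 1 to 5. Its means were 213 ± 42.7 and 99.0 ± 11.3 (SD, n = 5), and the log2 fold change was -1.09 (SE 0.09). Hopx (gene ID 74318) had 95.6, 85.1, 142.1, 105.0 and 91.8 in control pools 1 to 5 and 53.9, 42.1, 60.4, 49.5 and 41.0 in SCARKO pools 1 to 5. Control pool 3 was the highest and the groups stayed apart by 1.41-fold. The Hopx means were 104 ± 22.5 and 49.4 ± 8.14 (SD, n = 5), and the log2 fold change was -1.06 (SE 0.08), and its dimmer probe set gave -1.08 (SE 0.11), with its lowest control value in pool 1 (39.3) rather than pool 2 (45.4).

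**Figure D1:**
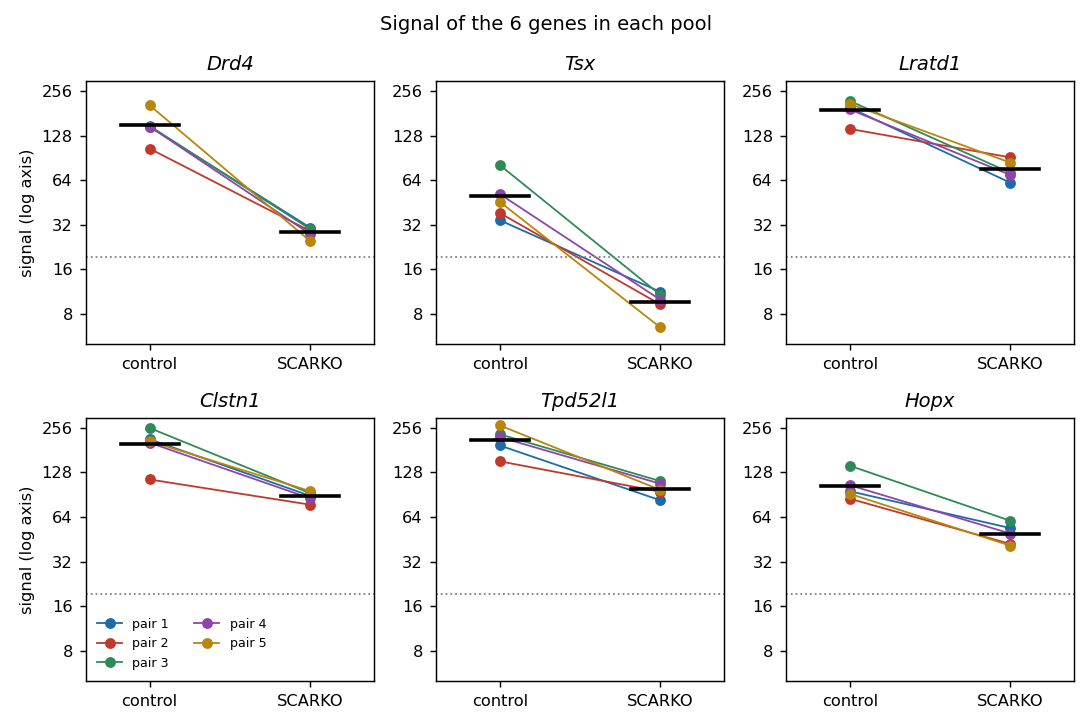
Signal of each gene (vertical log axis, linear signal units) in the 5 control and 5 SCARKO pools, with a line joining the pools of each littermate pair, a black bar at the group mean and a dotted line at the dim signal of 19.3. Every line slopes down, SCARKO values of Tsx lie between 6.5 and 11.3, below the dotted line, and control pool 2 is the lowest control for every gene but Tsx.

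The order of the falls was Drd4, Tsx, Lratd1, Clstn1, Tpd52l1 and Hopx. With 16 added the order was the same, at -1.88 (SE 0.11), -1.34 (SE 0.12), -1.18 (SE 0.11), -1.01 (SE 0.10), -0.98 (SE 0.08) and -0.87 (SE 0.07). The steps around Tsx changed with that choice. Without the addition Tsx lay within 1 standard error of Drd4 and several from Lratd1, and with it Tsx lay several standard errors from Drd4 and less than 2 from Lratd1. The step from Clstn1 to Tpd52l1 was within 1 standard error either way. Among all 7973 genes ordered by log2 fold change they held ranks 3, 4, 7, 12, 13 and 15 from the lowest. The other genes between ranks 1 and 15 were Rhox5, Eppin, Gpd1, Stard10, Nags, Serpina5, Tubb3, Pcsk1n and Cdo1, which are not among the 6. Just below Hopx came Cyp2s1 (-0.96), a cytochrome, Notch1 (-0.91), a receptor of cell to cell signalling, and Lpar3 (-0.91), a receptor for lysophosphatidic acid, at ranks 16, 17 and 18. All 9 probe sets of the 6 genes passed limma's adjusted p under 0.05, as 5.19% of the 13576 kept probe sets did in either direction and 3.26% in the downward direction. The pools of the 2 groups did not overlap for any of the 6, as for 2.78% of all genes in that direction, and each fell in all 5 pairs, as did 8.78% of all genes. The choice of the genes fixes these counts, and nothing is read from them. In RNA of a whole testis, fewer cells of a type and less RNA per cell cannot be told apart.

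The falls varied from pair to pair. Drd4 was 4.80-, 3.60-, 4.97-, 5.32- and 8.26-fold lower in pairs 1 to 5, and Tsx was 3.04-, 4.14-, 7.52-, 5.17- and 7.05-fold lower. Both were reduced most in pair 3 or 5. Lratd1 was 3.21-, 1.56-, 3.06-, 2.77- and 2.49-fold lower in pairs 1 to 5 and Clstn1 was 2.41-, 1.48-, 2.76-, 2.38- and 2.18-fold lower. Pair 2 showed the smallest fall for these, as it did for 4 of the 6 genes. Tpd52l1 was 2.34-, 1.60-, 2.07-, 2.06- and 2.73-fold lower, and Hopx, the steadiest of them, was 1.77-, 2.02-, 2.35-, 2.12- and 2.24-fold lower. The median log2 ratio over the 6 genes was -1.44, -0.85, -1.54, -1.36 and -1.38 in pairs 1 to 5, against medians over all genes between 0.0067 and 0.027. By this median, pair 5, whose titles and descriptions agree, lay inside the range of the other 4 pairs. For Drd4 (8.26-fold) and Tpd52l1 (2.73-fold), pair 5 showed the largest fall. The 6 genes were chosen for their fall under the titles, so these values cannot decide between titles and descriptions. Under the genotypes of the descriptions, pairs 1 to 4 would show rises and pair 5 a fall for all 6 genes.

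**Figure D2:**
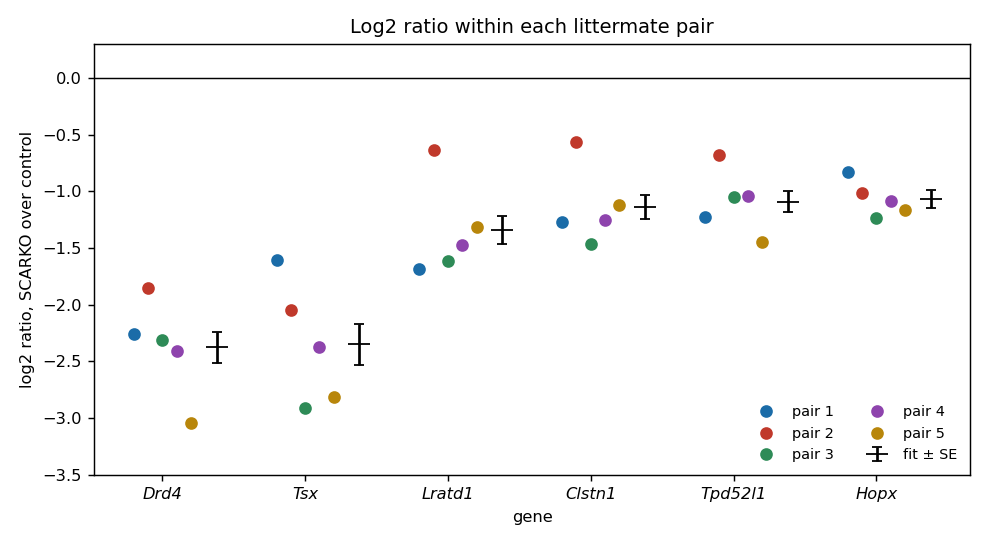
Log2 ratio of SCARKO over control signal (vertical axis) in each of the 5 littermate pairs, for the 6 genes in order of their fall, with the fitted log2 fold change and its standard error in black. All 30 ratios lie below 0, and pair 2 is nearest to 0 for 4 of the 6 genes.

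The control pools of the 6 genes differed more among themselves than the SCARKO pools did. The control pool of pair 2 had the lowest control signal of 5 of the 6 genes, Drd4, Hopx, Tpd52l1, Lratd1 and Clstn1, and Tsx had its lowest in control pool 1. The 6 genes in control pool 2 lay a median of 0.44 below the control mean on the log2 scale, with Clstn1 0.75 below it, and in control pool 3 they lay a median of 0.31 above it. Rhox5, Eppin, Serpina5, Gpd1 and Tubb3, which are androgen-regulated genes of Sertoli cells, each had their lowest control signal in the same pool 2, a median of 0.73 below their control mean. Their falls held ranks 1, 2, 9, 5 and 10 among all genes, so this set is not independent of the contrast that chose the 6. Over all measured genes, 23.6% had their lowest control value in pool 2 and the median deviation there was -0.0024. Of the 19 Sertoli cell markers, 9 had their lowest control value in pool 2, with a median deviation of -0.06. The summed signal of these markers, which is weighted towards the brightest of them, was 13763 in control pool 2, also the lowest. In the other control pools it was 14110 to 14693. The summed signal of 13 germ cell markers in control pool 2, 5460, lay within the control range of 4336 to 5600. The part of these markers in the pair 2 values was not tested.

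The SCARKO pool of pair 2 did not stand out in the same way. Its values were the highest of the SCARKO pools for Lratd1 (91.5) and the lowest for Clstn1 (77.6), and lay within the others' range for Drd4 (29.1), Tsx (9.3), Tpd52l1 (94.9) and Hopx (42.1). On the log2 scale the control pools of the 6 genes had an SD between 0.25 (Lratd1) and 0.48 (Tsx), and their SCARKO pools an SD between 0.12 (Clstn1 and Drd4) and 0.32 (Tsx). For each of the 6 genes the SD was larger among control than among SCARKO pools. The medians over all genes were 0.13 and 0.12. Drd4 and Clstn1 show the contrast most plainly, since their control SD of 0.34 and 0.44 exceeded that of 96.4% and 98.8% of all genes, while their SCARKO SD of 0.12 lay near the middle, above 51.8% and 50.6%. Tsx varied more than most genes in both groups, and Lratd1 had nearly the same SD in both (0.25 and 0.23).

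**Figure D3:**
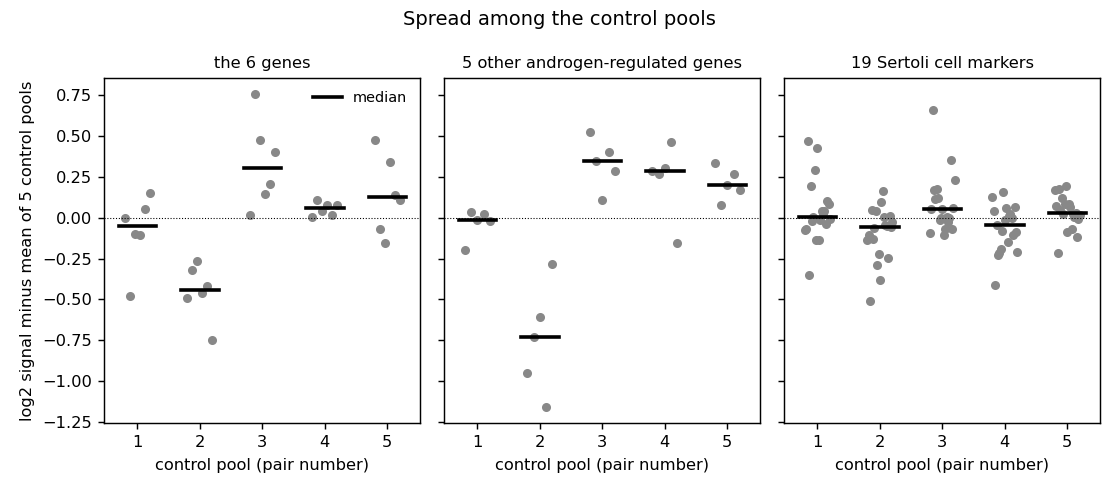
Log2 signal in each control pool minus the gene's mean over the 5 control pools (vertical axis), with 1 grey point per gene and a black bar at the median, for the 6 genes, for Rhox5, Eppin, Serpina5, Gpd1 and Tubb3, and for 19 Sertoli cell markers. The medians in pool 2 are -0.44, -0.73 and -0.06. The first 2 sets, both of genes with large falls in SCARKO, dip there while the markers as a group lie near 0.

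Genes with the most similar pair-by-pair falls were found by the root mean square difference between the 5 pair log2 ratios, a measure on which small values mean alike. Drd4 and Tsx were each other's nearest gene at 0.42, followed for both by the protease inhibitor Eppin (0.68 and 0.76) and the glycerol-3-phosphate dehydrogenase Gpd1 (0.84 and 0.94). Tpd52l1 was nearest to Cyp2s1 (0.16), to Pcsk1n (0.17), an inhibitor of prohormone convertase, and to the neuronal tubulin Tubb3 (0.19). Clstn1 was nearest to Cdo1 (0.16), the cysteine dioxygenase, to Tubb3 (0.21) and to the protein C inhibitor Serpina5 (0.23). Lratd1 was nearest to the lipid-transfer protein Stard10 (0.20), to Clstn1 (0.24) and to Tubb3 (0.26), and Hopx to Cdo1 (0.23), Cyp2s1 (0.26) and the iron transporter Slc11a2 (0.27). Every one of these nearest genes was lower in SCARKO as well, by a log2 fold change between -0.81 (Slc11a2) and -1.67 (Gpd1), except Eppin, Drd4 and Tsx, which were lower still. The measure rewards equal size of fall as well as equal order of pairs, and it uses the contrast that chose the 6 genes.

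The 3 relatives of the 6 genes that were measured, all related to Tpd52l1 or Lratd1, did not pass the test. No relative of Tsx or Hopx was listed. Of 14 family members listed, 9 were on the array and 3 were bright enough to be measured, Tpd52, Tpd52l2 and Plaat3. Limma called 0 of the 3 at an adjusted p under 0.05, and 0 had an unadjusted p under 0.05, against 5.69% of all genes called in either direction. Tpd52 had a signal of 263 ± 16.5 in control and 246.0 ± 7.70 in SCARKO pools (SD, n = 5), and the log2 fold change was -0.10 (95% interval -0.21 to 0.016, limma adjusted p = 0.32), and its other probe set gave 0.10. Tpd52l2 had 210.3 ± 7.29 and 213 ± 3.53 (SD, n = 5), and the log2 fold change was 0.02 (95% interval -0.09 to 0.13, limma adjusted p = 0.85). Plaat3, a phospholipase of the family to which the Lratd1 domain belongs, had a log2 fold change of -0.04 (95% interval -0.19 to 0.11, limma adjusted p = 0.80). The dopamine receptor genes Drd2 and Drd3 had mean signals of 3.26 and 3.37, and Clstn2 and Clstn3 had 14.7 and 15.5, all too dim to be tested. Drd1, Drd5, Tpd52l3, Lratd2 and Plaat5 were not analysed here.

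The 2 called genes of the list around Drd4 encode inhibitory G protein subunits, and any link of their falls to Drd4 was not tested. Of 26 genes of dopamine handling, inhibitory G proteins and adenylyl cyclases, 11 were measured, of which 2 fell, 0 rose and 9 did not pass, against 3.52% of all genes falling. Gnai1 had signals of 292.3, 275.0, 311.5, 286.1 and 297.4 in control pools 1 to 5 and 220.6, 224.4, 229.8, 225.1 and 208.1 in SCARKO pools 1 to 5. The groups were well apart, and Gnai1 fell in 5 of 5 pairs by 0.40 on the log2 scale (SE 0.05, limma adjusted p = 0.0015), which is 1.32-fold lower. Its 2 other probe sets, which are dimmer, gave -0.29 (limma adjusted p = 0.018) and -0.17 (limma adjusted p = 0.32). Gnai2 fell, with means of 372 ± 21.9 and 330.5 ± 20.1 (SD, n = 5), and the log2 fold change was -0.17 (SE 0.04, limma adjusted p = 0.041) with overlapping groups and the same direction in all 5 pairs, and its dimmer probe set gave -0.31 (limma adjusted p = 0.014). The call of the brighter Gnai2 probe set ended without any 1 of the 5 pairs (limma adjusted p = 0.052 to 0.12) and without the pair block (0.15), while Gnai1 stayed called in each of these (0.0015 to 0.011 without 1 pair). Of the same subunit class, Gnai3 had -0.08 (limma adjusted p = 0.31) and Gnaz had 0.04 (limma adjusted p = 0.81). The adenylyl cyclases Adcy7 and Adcy9 had 0.13 and -0.13, neither past the threshold. The dopamine handling genes Th, Ddc, Dbh and Slc6a3 had signals too dim to be tested. Maoa, which breaks dopamine down, had a log2 fold change of -0.06 (limma adjusted p = 0.78). An unadjusted p under 0.05 was found for 3 of the 11 (27.3%, against 21.7% of all genes), which were Gnai1, Gnai2 and, in the upward direction, Adcy7. The list's median was -0.06, against 0.015 over all genes.

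Of 24 genes listed around Hopx, which were serum response factor, its coactivators, histone deacetylases and target genes of the factor, 22 were measured. Limma called 0 of the 22, with 8 at an unadjusted p under 0.05 (36.4%, against 21.7% of all genes). Srf itself had a log2 fold change of -0.16 (limma adjusted p = 0.21), Hdac2, which Hopx recruits, had -0.03, and the list's median was 0.06. Nearest to the threshold were the Sertoli transcription factor gene Gata4 (0.26, limma adjusted p = 0.081) and the adhesion protein gene Vcl (-0.19, limma adjusted p = 0.084), in opposite directions. Without pair 2, Vcl was called.

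Of 24 genes listed around Clstn1, covering kinesin subunits, the amyloid precursor family and its secretases, 16 were measured, 1 fell and 0 rose. That is 6.25% called, against 5.69% of all genes in either direction, and 4 of the 16 (25.0%) had an unadjusted p under 0.05, against 21.7% of all genes. Ncstn, which encodes nicastrin, the subunit of gamma-secretase that binds substrates, had signals of 87.4, 61.8, 90.7, 59.5 and 104.9 in control pools 1 to 5 and 63.3, 41.0, 59.1, 56.9 and 68.9 in SCARKO pools 1 to 5. The groups overlapped, but Ncstn fell within each of the 5 pairs, by 0.47 on the log2 scale (SE 0.09, limma adjusted p = 0.014). That call ended without pair 3 (limma adjusted p = 0.067) or 5 (0.063) and without the pair block (0.18). Nearest to the threshold was the alpha-secretase gene Adam10 (-0.23, limma adjusted p = 0.057), which was called as a fall without pair 4. Another gamma-secretase subunit gene, Psenen, had a log2 fold change of 0.17 (limma adjusted p = 0.091) and was called as a rise without pair 2. The kinesin heavy chain gene Kif5b had -0.07 and App had -0.08, neither past the threshold. The list's median was 0.0014.

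Of 12 genes listed around Tpd52l1, 9 were measured, 0 fell and 1 rose (11.1% called, against 5.69% of all genes). An unadjusted p under 0.05 was found for 4 of the 9 (44.4%), against 21.7% of all genes. Plp2, a proteolipid of membranes, rose, with means of 156 ± 16.2 in control and 182 ± 19.5 in SCARKO pools (SD, n = 5), and the log2 fold change was 0.22 (SE 0.05, limma adjusted p = 0.044) with the same direction in all 5 pairs and overlapping groups. Its call ended without any 1 pair (limma adjusted p = 0.068 to 0.17) and without the pair block (0.23). The kinase gene Map3k5 had a log2 fold change of -0.10 and the annexin gene Anxa6 had 0.20, neither past the threshold, and the list's median was -0.04.

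The genes beside the 6 on their chromosomes were not used to choose them. Of the 60 nearest protein-coding genes, 5 on each side, 36 were on the array and 24 were measured, of which 0 fell and 1 rose by limma's adjusted p, with a median log2 fold change of 0.04. Of the 24, 4 had an unadjusted p under 0.05 (16.7%, against 21.7% of all genes). These were Mycn, Trib2, Lpin1 and H6pd, all higher in SCARKO. The share called, 4.17%, lay near the 5.69% of all genes. Beside Drd4, Sct, which encodes the hormone secretin, had -0.17 (limma adjusted p = 0.32) and Deaf1 had 0.04. Near Tsx in the X-inactivation centre, Chic1 had -0.19 (limma adjusted p = 0.43) and Rlim, the gene of a ubiquitin ligase, had 0.04. The gene that rose was Mycn, a proto-oncogene transcription factor near Lratd1, with signals of 225.8, 234.4, 226.3, 232.3 and 220.3 in control pools 1 to 5 and 252.2, 279.0, 272.6, 269.6 and 286.0 in SCARKO pools 1 to 5. The groups did not overlap, and Mycn rose by 0.25 on the log2 scale (SE 0.05, limma adjusted p = 0.014) in 5 of 5 pairs, a call that ended without pair 3 (0.060) or 5 (0.065). Its dimmer kept probe set gave 0.12 (limma adjusted p = 0.65). The nearest measured genes on either side of Lratd1, Ddx1 and Trib2, had -0.03 and 0.14.

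**Figure D4:**
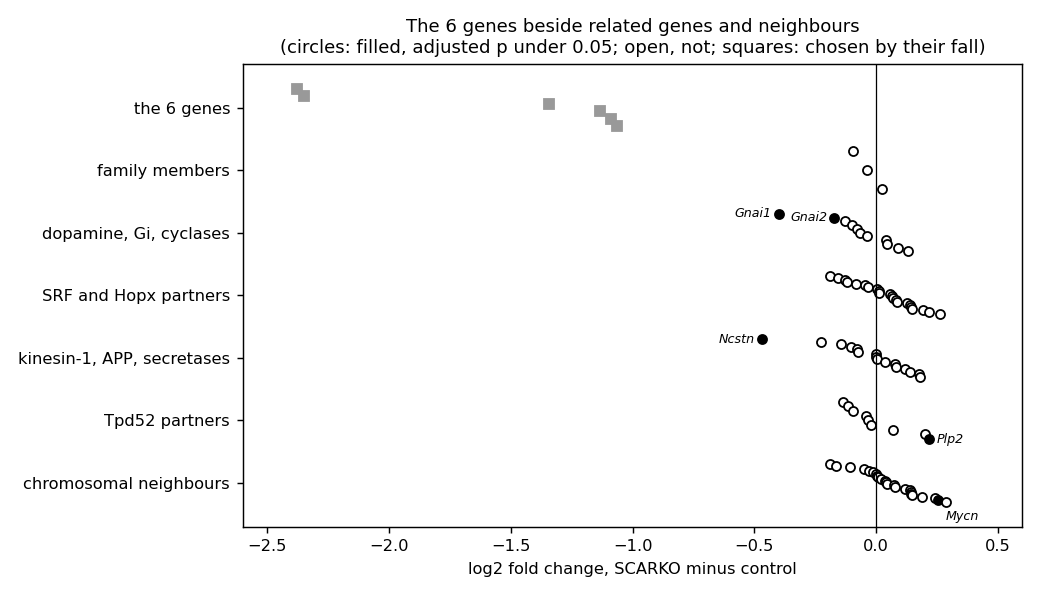
Log2 fold change, SCARKO minus control (horizontal axis), of the 6 genes (grey squares, chosen by their fall) and of the measured genes of each related list and of the chromosomal neighbours (circles, filled where limma's adjusted p was under 0.05). The 6 genes lie between -2.38 and -1.06, and the related genes lie between -0.47 (Ncstn) and 0.29 (H6pd, a neighbour of Clstn1).

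Other cell types of the testis were summarised by the summed signal of their measured markers, a measure weighted towards the brightest of them. The Sertoli sum was 13763 to 14693 in control and 13322 to 14144 in SCARKO pools, with 4 of 19 markers lower and 3 higher by limma's adjusted p, against 5.69% of all genes called in either direction. Nr0b1, Cldn11, Gata1 and Shbg were lower, with log2 fold changes of -0.86, -0.68, -0.50 and -0.30. Fshr, Gdnf and Kitl were higher, with 0.42, 0.39 and 0.24. Sums of germ cell markers were 4336 to 5600 and 4380 to 5186 (2 of 13 fell, 15.4%, against 3.52% of all genes). Those of Leydig cell markers were 910.3 to 1209 and 970.3 to 1321 (0 of 6 called, 2 at an unadjusted p under 0.05, 33.3%). Macrophage sums were 382 to 526 and 445 to 537, endothelial sums 213 to 277 and 233 to 279.8, and myoid sums 2880 to 3263 and 2547 to 2972. Limma called 0 of their markers, with 2, 1 and 2 at an unadjusted p under 0.05 (28.6%, 16.7% and 28.6%). That share was 21.7% over all genes, 52.6% of the Sertoli and 46.2% of the germ cell markers. The ranges of these 6 marker sums overlapped between the groups. Within pairs, the macrophage sum was higher in SCARKO in 5 of 5 and all 7 macrophage markers had a positive log2 fold change, while the Sertoli and myoid sums were higher in 1 of 5, the germ and Leydig sums in 3 of 5 and the endothelial sum in 4 of 5. Lpl, a lipoprotein lipase and the 1 measured marker of epididymis and fat of 6 listed, rose in 5 of 5 pairs by 0.51 on the log2 scale, and its signal was 139 to 206 in control and 224 to 263 in SCARKO pools. The other markers of that list on the array, Lcn5, Defb2, Adipoq and Fabp4, were too dim to be tested. The part of these shifts in the falls was not tested.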

How the data were processed

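Each array measured 1 pool of testis RNA. The deposited values are linear signal intensities, made with MAS5 for 8 arrays per the submitters' processing notes. Those notes name no tool for pair 5 and no version or settings. The number of arrays limits the precision.

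Probe sets were named from the platform annotation (20380 of 22626 list 1 gene, 691 several and 1555 none). Signals below 1 were raised to 1 before log2, and the dimmest 40% of probe sets were dropped, which kept 13576. limma 3.58.1 (R 4.3.3), tested on simulated data, was fitted to all of them with the littermate pair as a block, an intensity trend and Benjamini-Hochberg adjustment. Each gene is its brightest kept probe set. The labels' protocols state the pairing, and deviations of same-numbered pools correlated at 0.11 to 0.39. For mismatched pools the largest value per pair ran from -0.008 to 0.109. Pair 4 had 0.109 both for its own and for mismatched pools, so its pairing is not visible in these values. P-values of the blocked fit rest on the spread of the differences within pairs, with information on that spread shared across probe sets. Alternatives changed the block, filter, offset, normalization, trend, group labels and pairs used.

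The 6 genes and all lists were chosen with earlier results of these data known. The rule for named genes took the 6, measured relatives, called list and neighbour genes, the 3 most similar genes of each and the next 3 falls, and others were named after their values were seen. The targeted gene is not reported, and groups rest on the titles.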

Additional observations from a re-analysis of the deposited data

Results flagged for a closer look

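In 34 groups of 5 pools, covering the 9 probe sets of the 6 genes and 8 related genes, 1 sample stood apart by Dixon's criterion, where chance marks about 1 group in 20. It was the signal of Tpd52 in SCARKO pool 3, which was 232.4, while the other 4 SCARKO pools lay between 248.0 and 251.0. None of the 18 groups of the 6 genes was marked, control pool 2 included.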

How the results depend on the processing

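With the intensities as deposited, the fall of each of the 6 genes kept its direction under every alternative but the groups of the descriptions. Over the other alternatives the log2 fold change ranged from -2.65 to -1.88 for Drd4, -2.54 to -1.34 for Tsx, -1.52 to -1.18 for Lratd1, -1.28 to -0.99 for Clstn1, -1.19 to -0.98 for Tpd52l1 and -1.12 to -0.87 for Hopx. The ends nearest to 0 came from adding 16 before log2, which shrinks dim values by construction, except for Clstn1, where it was the other probe set. Both changes together, the dimmer probe set with 16 added, lay outside these ranges, at -1.71 for Drd4, -0.82 for Clstn1 and -0.72 for Hopx. Tsx was left out when the lowest 60% of probe sets were removed. With groups from the descriptions, the median of the 6 genes was 0.75, with Drd4 at 1.16, Tsx 1.22, Hopx 0.60, Tpd52l1 0.51, Lratd1 0.82 and Clstn1 0.69, Gnai1 at 0.19, Gnai2 0.10, Ncstn 0.23, Plp2 -0.18 and Mycn -0.10.

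The count of called probe sets was 704, and 404 without the pair block, 38 with dim probe sets kept, 321 without the trend, 0 with groups from the descriptions (611 at an unadjusted p under 0.05 in limma), and 304 to 744 without 1 pair. In the dopamine and G protein list, called genes numbered 1 in place of 2 without the block, without the filter, without the trend and without any 1 pair (1 to 1), Gnai1 each time, and 0 with groups from the descriptions. The kinesin and secretase list held 0 in place of 1 without the block, without the filter and with groups from the descriptions, and 0 to 2 without 1 pair. The Tpd52 partner list held 0 in place of 1 without the block, the filter or the trend, with groups from the descriptions and without any 1 pair (0 to 0). The neighbour genes held 0 in place of 1 without the filter, without the trend and with groups from the descriptions, and 0 to 1 without 1 pair. The serum response factor list held 0 to 1 without 1 pair, and the family members held 0 under all alternatives, with 0 of 3 at an unadjusted p under 0.05 in the limma fit to all pairs. The pairing by littermates, fitted as a block, changed the calls of Gnai2, Ncstn and Plp2, and of no other related gene named as called. The causes were not tested.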
